A study of Mus musculus with 7 samples.

Results

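The genes described here encode the proteins of the mitochondrial ribosome and were taken by name: every gene of the deposited table whose symbol is Mrpl or Mrps followed by a number and at most 1 letter. The rule found 77 of 20643 genes. Their RNA was measured in fetal mouse prospermatogonia, the male germ cells that stop dividing before birth and then receive the paternal methylation imprints. The study asked whether transcription through the H19/Igf2 imprinting control region (ICR), a stretch of DNA beside the H19 gene on chromosome 7, is needed for that region to become methylated. For this purpose a cassette that ends transcription was inserted next to the ICR. The 7 total RNA-seq libraries came from 3 H19Ter+neo/H19Ter+neo samples (replicates 5, 6 and 7), 2 H19Ter/H19Ter samples (replicates 3 and 4) and 2 WT samples (replicates 1 and 2), written below as H19Ter+neo, H19Ter and WT. H19Ter+neo fetuses carried on both alleles the terminator together with the Pgkneo selection cassette used to make it, and H19Ter fetuses carried the terminator after Hprt-Cre had removed that cassette. The mutant lines were bred on a 129S1 background and then crossed with TgOG2 mice, whose line name gives B6 and CBA as strains. The mutant fetuses carried the Pou5f1-EGFP transgene TgOG2, by which their germ cells were sorted from testes, and their share of each strain is not stated. The cells of all 7 libraries were sorted, but neither the strain nor the transgene of the WT fetuses is stated. The labels give the age as 15 dpc in one field and as 15.5 dpc in the protocol. The targeted alleles derive from 1 line of ES cells, testes were combined at digestion, and which litter each library came from is not stated, so the p-values below measure the spread between these samples, some of which may be technical.

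Values are CPM, read pairs of a gene per M read pairs after scaling between libraries, recovered from the deposited log2 values. The read pairs counted to genes were 84.1 to 87.3 M in the 3 H19Ter+neo libraries, 37.5 and 51.2 M in the H19Ter libraries, and 45.1 and 45.9 M in the WT libraries, so depth moved with genotype. The 13 prospermatogonia markers chosen for the check (Dazl, Ddx4, Nanos2 and others) all had a value and summed to 4783 to 4996 CPM in H19Ter+neo, 4194 and 4335 CPM in H19Ter, and 4253 and 4386 CPM in WT. Single markers differed in direction: Nanos2 had 27.0, 33.5 and 20.9 CPM in H19Ter+neo, 41.3 and 39.9 CPM in H19Ter, and 56.4 and 59.3 CPM in WT, whereas Dnmt3l had 79.4 to 99.95 CPM in H19Ter+neo, 94.3 and 85.9 CPM in H19Ter, and 43.2 and 35.7 CPM in WT. Sertoli cell markers (8 of 9 with a value) summed to 17.0 to 27.0 CPM in all 7 libraries. Leydig cell markers (5 of 6 with a value, none for Insl3) summed to 29.8 CPM in H19Ter+neo replicate 5 and 26.0 CPM in H19Ter replicate 3, against 5.46 to 15.2 CPM in the other 5 libraries. Interstitial and peritubular markers (all 10 with a value) summed to 87.6 and 129 CPM in these same libraries, against 49.2 to 67.7 CPM in the others. Counts without both of these libraries are given below for H19Ter+neo against H19Ter only. At an unadjusted p under 0.05, the counts changed in the comparisons with WT too. Endothelial markers (all 6 with a value) summed to 29.0 to 32.0 CPM in all libraries. Macrophage and leukocyte markers (3 of 6 with a value, none for Ptprc) summed to 5.07 to 6.15 CPM in H19Ter+neo, 7.53 and 6.76 CPM in H19Ter, and 5.11 and 4.36 CPM in WT, with Fcgr3 at 0.63 to 1.07 CPM in H19Ter+neo, 1.45 and 1.24 CPM in H19Ter, and 0.13 and 0.18 CPM in WT. Of 6 erythroid markers only Alas2 had a value, with 4.34 to 5.82 CPM in H19Ter+neo, 3.53 and 2.66 CPM in H19Ter, and 2.75 and 1.66 CPM in WT. The part of these cells in the results below was not tested. Genes were compared between genotypes with limma across all 20643 genes, and a gene is said to be called where its Benjamini-Hochberg adjusted p, two-sided, was under 0.05. In RNA from a whole population, fewer cells of a type and less RNA per cell cannot be told apart.

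Mitochondria keep ribosomes of their own, which translate the few proteins encoded in mitochondrial DNA, all of them parts of the respiratory chain and of ATP synthase. Their proteins are encoded in the nucleus, made in the cytoplasm and imported, and they join rRNAs encoded by mitochondrial DNA into a large and a small subunit. Many of the proteins have a homologue in bacterial ribosomes, and others are found only in mitochondria. Of the 77 genes, 50 encode proteins of the large subunit and 26 of the small subunit. Symbols mislead for a few: Mrps30 and Mrps18a encode proteins of the large subunit, and Mrps36 encodes a protein of the 2-oxoglutarate dehydrogenase complex. By current ribosomal nomenclature, 46 of the proteins have a bacterial homologue and 28 are specific to mitochondria. The genes lay on 17 chromosomes, 11 of them on chromosome 11 and 6 on chromosome 7.

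The promoters of several genes on which the results turn are shown first. They let a reader compare genes higher in H19Ter+neo, a gene lower in both mutants and a gene lowest in H19Ter. RefSeq (GRCm38.p6) gave a promoter window, 250 bases before to 50 after the start, for 68 of the 77 genes. The 250 bases before the start held no annotated exon in 17 of them, and 5 of these are printed 5′ to 3′, with matches to any of the motifs described below in capitals.
Mrps22 (chr9:98601680-98601929, minus strand): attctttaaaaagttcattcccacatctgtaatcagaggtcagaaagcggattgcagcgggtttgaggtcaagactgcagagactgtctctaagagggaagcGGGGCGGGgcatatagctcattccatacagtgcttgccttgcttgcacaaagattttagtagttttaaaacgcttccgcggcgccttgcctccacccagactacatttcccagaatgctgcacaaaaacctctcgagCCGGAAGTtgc
Mrps9 (chr1:42850983-42851232, plus strand): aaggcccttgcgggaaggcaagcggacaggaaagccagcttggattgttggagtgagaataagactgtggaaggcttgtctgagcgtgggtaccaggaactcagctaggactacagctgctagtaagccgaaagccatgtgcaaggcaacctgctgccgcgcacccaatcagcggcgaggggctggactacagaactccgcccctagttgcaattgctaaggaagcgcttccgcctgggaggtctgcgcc
Mrpl20 (chr4:155802628-155802877, plus strand): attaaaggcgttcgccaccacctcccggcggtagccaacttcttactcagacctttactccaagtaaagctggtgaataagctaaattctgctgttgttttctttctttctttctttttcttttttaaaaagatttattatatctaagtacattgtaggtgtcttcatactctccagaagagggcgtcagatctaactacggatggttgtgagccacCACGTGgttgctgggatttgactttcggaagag
Mrps24 (chr11:5707702-5707951, minus strand): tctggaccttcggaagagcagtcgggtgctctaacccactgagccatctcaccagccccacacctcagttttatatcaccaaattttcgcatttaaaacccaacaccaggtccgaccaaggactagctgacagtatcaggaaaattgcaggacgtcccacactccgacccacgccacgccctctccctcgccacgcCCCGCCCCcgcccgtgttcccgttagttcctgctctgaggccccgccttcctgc
Mrps2 (chr2:28467816-28468065, plus strand): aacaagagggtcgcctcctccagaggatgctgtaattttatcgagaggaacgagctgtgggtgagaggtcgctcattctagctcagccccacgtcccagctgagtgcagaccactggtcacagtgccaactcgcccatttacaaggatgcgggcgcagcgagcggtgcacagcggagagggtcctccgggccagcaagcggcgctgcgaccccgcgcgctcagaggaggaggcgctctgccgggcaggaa
Mrps22, Mrps9 and Mrpl20 were higher in H19Ter+neo than in either other genotype, Mrps2 was lower in both mutants than in WT, and Mrps24 was lower in H19Ter than in both other genotypes. The motifs searched, on both strands over the whole 300 bases, were the core of the NRF1 site GCATGCGC, the ETS site bound by GABPA CCGGAAGT, the YY1 site AAGATGGC, the SP1 site GGGGCGGG and the E-box CACGTG, none of which contains another. NRF1, GABPA and YY1 are known as regulators of nuclear genes for mitochondrial proteins. The ETS and YY1 strings were each in 12 of the 68 genes (17.6%), against 4.3% and 3.2% of all 27025 genes with a window and 7.9% and 4.6% of the 12642 such genes with a value in the table. The NRF1 core was in 8 genes (11.8%, against 3.0% of all genes and 5.5% of table genes). The SP1 string was in 20 (29.4%, against 18.4% and 32.6%) and the E-box in 5 (7.4%, against 8.1% and 11.3%). As the printed windows show, Mrps22 had an ETS and an SP1 match, Mrps24 an SP1 match and Mrpl20 an E-box, while no string was found before the starts of Mrps9 and Mrps2. Over the whole 300 bases Mrps24 had a YY1 match as well, which reaches into the 50 bases after the start that are not printed. In H19Ter+neo against WT, where 27.7% of all genes were called higher and 26.7% lower, the calls were 5 higher and 2 lower of the 12 genes with a YY1 match, 3 and 3 of the 12 with an ETS match, 3 and 7 of the 20 with an SP1 match, 1 and 3 of the 8 with an NRF1 match, 2 and 0 of the 5 with an E-box, and 5 and 4 of the 27 with none of them.

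All 77 genes were expressed in every library. Their mean level over the 7 libraries ran from 3.36 CPM (Mrps36) to 143 CPM (Mrpl3), with a median of 27.3 CPM, against a median of 7.34 CPM over all genes, and the fewest read pairs behind any value were 140, for Mrpl27 in WT replicate 2. Together they took 0.309, 0.308 and 0.275% of the read pairs in H19Ter+neo replicates 5, 6 and 7, 0.275 and 0.262% in H19Ter replicates 3 and 4, and 0.279 and 0.286% in WT replicates 1 and 2. The share of H19Ter+neo replicate 7 thus lay near that of H19Ter replicate 3. Per kb of exon, the median level was 14.5 CPM for the large and 10.8 CPM for the small subunit genes, on a range of 2.30 to 47.3 CPM per kb. The highest were Mrpl45 (47.3 CPM per kb), whose protein ties the ribosome to the inner membrane, Mrpl24 (45.2), Mrpl44 (35.9), the pentatricopeptide repeat protein gene Mrps27 (34.0) and Mrpl22 (30.7), whose protein lines the exit tunnel. The lowest were Mrps26 (2.30 CPM per kb), Mrpl33 (2.52), Mrps36 (2.64), Mrps34 (2.76) and Mrps25 (3.06). The length used is that of all annotated exons of a gene merged, so a low value per kb need not mean a low level. Mrpl33, with 7326 such bases, had a mean of 18.4 CPM. Exons of Mrps25 lie to 69.8% under Nr2c2, and those of Mrps34 to 63.4% under Mapk8ip3, both on the opposite strand, and 37.0% of Mrps34 is shared with Nme3 on its own strand. Reads from such shared stretches can be lost or assigned to either gene.

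**Figure D1:**
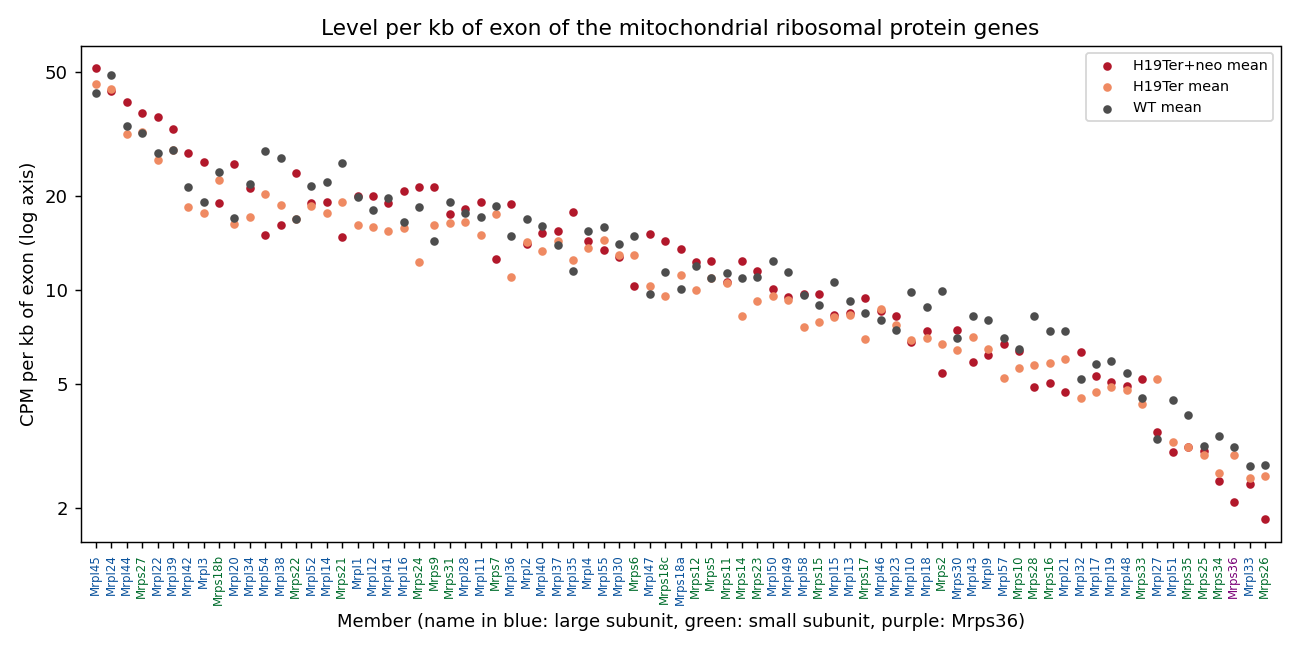
Mean level of each of the 77 genes per kb of exon (y axis, CPM per kb, log axis) in H19Ter+neo (3 libraries), H19Ter (2 libraries) and WT (2 libraries), ordered by the mean over all libraries. Levels span 2.30 to 47.3 CPM per kb, and both subunits are found along the whole range.

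Replicates differed in a shared way. In H19Ter+neo, replicate 7 held the lowest value for 70 of the 77 genes and replicate 5 the highest for 44. H19Ter replicate 4 was below replicate 3 for 60 genes, and WT replicate 1 below replicate 2 for 57. The median deviation of the 77 genes from their means over all libraries was 0.14, 0.07 and -0.12 on the log2 scale in H19Ter+neo replicates 5, 6 and 7, -0.09 and -0.13 in H19Ter replicates 3 and 4, and 0.07 and 0.12 in WT replicates 1 and 2. Both H19Ter libraries were thus low for these genes and both WT libraries high, while the H19Ter+neo libraries covered both sides. The median SD between libraries of a genotype was 0.14 in H19Ter+neo, 0.06 in H19Ter and 0.06 in WT on the log2 scale, against 0.11, 0.07 and 0.08 over all genes in the same range of levels.

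**Figure D2:**
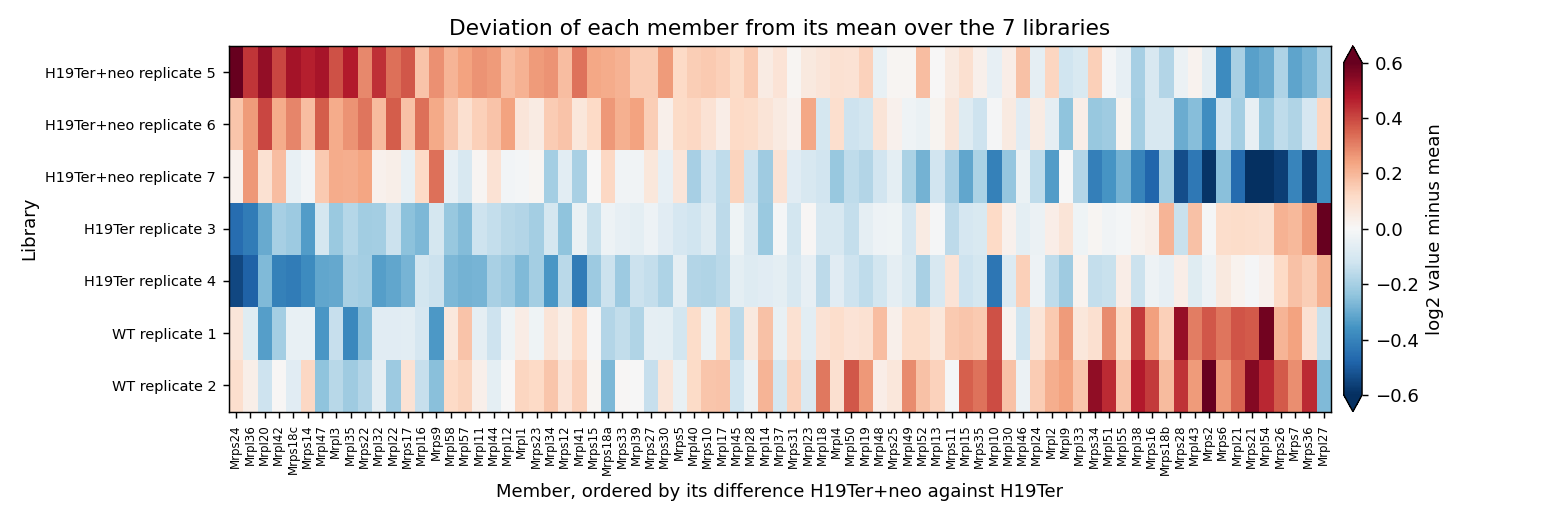
Deviation of the log2 value of each gene (x axis) in each library (y axis) from its mean over the 7 libraries, with red above and blue below the mean and the scale ending at 0.6 on either side. Genes are ordered by their difference between H19Ter+neo and H19Ter, so the order of the columns reflects that comparison. H19Ter+neo replicate 7 is paler in red and deeper in blue than replicates 5 and 6.

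Mrpl23 is the member that lies beside the targeted locus, on chromosome 7 at 142532686 to 142540747 (GRCm38, plus strand), its end 34782 bases from H19. It encodes a large subunit protein at the exit of the peptide tunnel. Mrpl23 had 39.9, 45.0 and 36.0 CPM in H19Ter+neo, 38.6 and 37.1 CPM in H19Ter, and 36.7 and 36.1 CPM in WT. The H19Ter+neo libraries bracketed those of the other genotypes, whereas both H19Ter libraries stood just above both WT libraries. The log2 difference was 0.14 ± 0.09 (SE) for H19Ter+neo against WT (limma adjusted p = 0.224), 0.06 ± 0.10 for H19Ter against WT (limma adjusted p = 0.714) and 0.08 ± 0.09 for H19Ter+neo against H19Ter (limma adjusted p = 0.538). Mrpl23 was called in none of the comparisons. A processed pseudogene, Mrpl23-ps1 on chromosome 2, is identical to 540 bases of it and had 1.13 to 1.71 CPM in H19Ter+neo, 2.12 and 2.63 CPM in H19Ter, and 2.36 and 2.97 CPM in WT, so reads that match both may be missing from either.

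**Figure D3:**
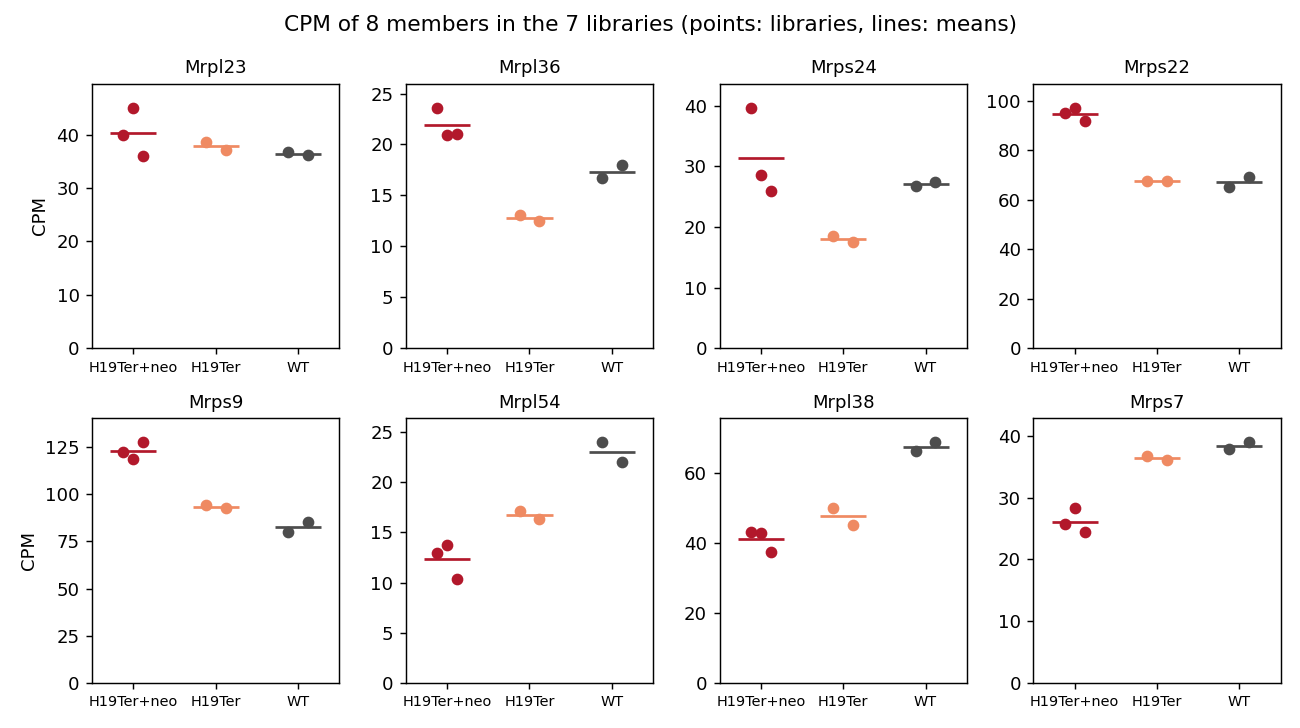
CPM (y axis, from 0) of 8 of the genes in each library (points) of H19Ter+neo, H19Ter and WT, with the mean of each genotype as a line. Mrps22 and Mrps9 were highest in all 3 H19Ter+neo libraries, Mrpl54, Mrpl38 and Mrps7 were lowest there, and Mrps24 and Mrpl36 were lowest in both H19Ter libraries.

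In H19Ter against WT, 13 of the 77 genes were called lower (16.9%, with 11.0% of all genes called lower) and 0 higher (with 14.1% of all genes called higher). The median log2 difference of the 77 genes was -0.20, against -0.01 over all genes, and 66 of them had a negative value. At an unadjusted p under 0.05, 28 were lower and 2 higher. With limma-voom on the read pairs, 2 were called lower and 0 higher (1402 and 1690 of all genes). The falls were small: the furthest was Mrps24, whose protein corresponds to bacterial S3 at the mRNA entry, with 18.6 and 17.5 CPM in H19Ter and 26.8 and 27.4 CPM in WT. Its level fell by 33.5% (log2 difference -0.59 ± 0.16, limma adjusted p = 0.0264), with 15.4% of its exonic bases shared with Urgcp on the same strand. Mrps2, for the homologue of bacterial S2, had 19.8 and 19.5 CPM in H19Ter and 25.8 and 32.1 CPM in WT (-0.55 ± 0.16, limma adjusted p = 0.0311). The other small subunit genes called were Mrps35 (-0.34 ± 0.10) and Mrps31 (-0.22 ± 0.07), both specific to mitochondria.

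The remaining 9 belong to the large subunit. Mrpl38 (chr11:116131817-116138868), specific to mitochondria, had the smallest adjusted p of them, with 50.2 and 45.3 CPM in H19Ter and 66.3 and 68.8 CPM in WT (log2 difference -0.50 ± 0.09, limma adjusted p = 0.00486). Mrpl54 (chr10:81264713-81266934), likewise specific to mitochondria, had 17.1 and 16.3 CPM in H19Ter and 24.0 and 22.0 CPM in WT (-0.46 ± 0.13, limma adjusted p = 0.0339). In all of these genes the libraries of the genotypes did not overlap. Mrpl36 (chr13:73328513-73332178), the homologue of the small bacterial protein L36, had 13.1 and 12.5 CPM in H19Ter and 16.7 and 17.97 CPM in WT (-0.43 ± 0.10, limma adjusted p = 0.0144). Mrpl58, for the peptidyl-tRNA hydrolase that has become a ribosomal protein and can release stalled chains, had 25.6 and 24.9 CPM in H19Ter and 31.5 and 32.7 CPM in WT (-0.34 ± 0.10, limma adjusted p = 0.0307). Mrpl51 (-0.44), Mrpl57 (-0.42), Mrpl15 (-0.37), Mrpl1 (-0.30) and Mrpl17 (-0.30) completed the list. By origin, 7 of the 28 genes specific to mitochondria and 6 of the 46 with a bacterial homologue were called lower. The furthest value upward, 0.62 ± 0.21 for Mrpl27, was not called (limma adjusted p = 0.0529).

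The number of calls changed with each library left out, among all genes as among the 77, while the median difference of the 77 stayed between -0.23 and -0.15. Without H19Ter replicate 4, and likewise without WT replicate 2, limma called 0 of the 77 (with 16 and 8 lower and 1 and 1 higher at an unadjusted p under 0.05), and of all genes 529 and 306 lower, against 2273 with all libraries. It called 2 of the 77 lower without H19Ter replicate 3 (791 of all genes) and 5 lower without WT replicate 1 (1368 of all genes). The differences of Mrps24 in these 4 fits were -0.63 to -0.54, and those of Mrpl57 -0.44 to -0.41. H19Ter+neo libraries enter only through the shared spread. Leaving them out gave 20 lower and 1 higher without replicate 5 (2754 and 3116 of all genes), and 23 lower and 1 higher without replicate 7 (2728 and 2987 of all genes). Without replicate 6, 2038 of all genes were called lower and 2552 higher, and Mrpl15 lost its call (-0.37, limma adjusted p = 0.0563). At an unadjusted p under 0.05, 26 of the 77 were then lower and 2 higher. None of the 13 was called under every library left out. Scaling every library to the same total gave 4 lower and 2 higher (1309 and 3454 of all genes), with the median of the 77 at -0.12 and that of all genes at 0.07.

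In H19Ter+neo against WT, 15 of the 77 genes were called higher (19.5%, with 27.7% of all genes called higher) and 20 lower (26.0%, with 26.7% of all genes called lower). The median log2 difference was -0.07, against 0.01 over all genes, with 35 positive and 42 negative values, so called members were found in both directions. Those called were 11 higher and 10 lower of 50 in the large subunit, and 4 higher and 9 lower of 26 in the small subunit.

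Among the rises, Mrps9, the homologue of bacterial S9, had the smallest adjusted p, with 122, 119 and 127 CPM in H19Ter+neo and 79.7 and 85.3 CPM in WT. Its log2 difference was 0.57 ± 0.06, an increase of 48.9% (limma adjusted p = 5.93e-05). Mrps22, a small subunit gene specific to mitochondria, had 95.04, 97.2 and 91.8 CPM in H19Ter+neo and 65.3 and 69.1 CPM in WT (0.49 ± 0.06, limma adjusted p = 0.000136). For both the libraries of a genotype lay close together and far from those of the other. Mrpl3 (chr9:105053239-105079888), the member with the highest mean CPM and the homologue of bacterial L3, had 184, 165 and 165 CPM in H19Ter+neo and 128 and 126 CPM in WT (0.43 ± 0.07, limma adjusted p = 0.000475). Mrpl35, the homologue of bacterial L35, had 82.2, 71.1 and 68.6 CPM in H19Ter+neo and 45.2 and 51.0 CPM in WT (0.62 ± 0.09, limma adjusted p = 0.000286). The furthest rise was that of Mrpl47, for the homologue of L29 at the tunnel exit, with 74.1, 67.7 and 58.6 CPM in H19Ter+neo and 41.3 and 44.5 CPM in WT (0.63 ± 0.10, limma adjusted p = 0.000602), with 24.2% of its exonic bases under Actl6a or Ndufb5 on the opposite strand. Mrpl20 (0.57), Mrps18a (0.43), Mrpl22 (0.39), Mrpl42 (0.37) and Mrpl36 (0.33) were also higher, with no overlap between libraries. Mrpl22 lost its call without WT replicate 2 (0.31, limma adjusted p = 0.126), and Mrpl42 (0.26, limma adjusted p = 0.0932) and Mrpl36 (0.28, limma adjusted p = 0.0908) lost theirs without WT replicate 1.

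Among the falls, Mrpl54 went furthest, with 13.0, 13.8 and 10.4 CPM in H19Ter+neo and 24.0 and 22.0 CPM in WT. Its log2 difference was -0.90 ± 0.12 (limma adjusted p = 0.000207), and its level fell by 46.4%. Mrps2 had 18.998, 15.3 and 13.2 CPM in H19Ter+neo and 25.8 and 32.1 CPM in WT (-0.88 ± 0.15, limma adjusted p = 0.000669). Every H19Ter+neo library was below every WT library in these genes, as in all falls named here. Mrpl38 had 43.1, 43.0 and 37.5 CPM in H19Ter+neo and 66.3 and 68.8 CPM in WT (-0.72 ± 0.08, limma adjusted p = 8.8e-05). Mrps7 (chr11:115603925-115608036), for the homologue of bacterial S7 in the head of the small subunit, had 25.7, 28.3 and 24.4 CPM in H19Ter+neo and 37.9 and 38.9 CPM in WT (-0.56 ± 0.08, limma adjusted p = 0.000328). It shares 11.9% of its exonic bases with genes of the opposite strand. Mrps21 (-0.80), Mrps28 (-0.77), Mrpl21 (-0.65), Mrps26 (-0.59) and Mrpl51 (-0.56) were also called lower. Mrps36, which encodes no ribosomal protein, had 2.698, 3.06 and 2.21 CPM in H19Ter+neo and 3.51 and 4.49 CPM in WT (-0.58 ± 0.19, limma adjusted p = 0.0218). Mrps36 has 4 processed pseudogene copies (at least 95% identity over 200 bases), and it was no longer called without WT replicate 2 (-0.41, limma adjusted p = 0.19) and without H19Ter+neo replicate 7 (-0.46, limma adjusted p = 0.0643). Without WT replicate 2, Mrps26 was not called either (-0.50, limma adjusted p = 0.0585).

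Without WT replicate 2, 11 were called higher and 9 lower (4004 and 3726 of all genes), and without H19Ter+neo replicate 7, the library lowest for most of these genes, 22 were higher and 17 lower (5011 and 4900 of all genes) and the median turned to 0.02. Under every library left out, 8 of the 15 rises and 9 of the 20 falls were called, among them Mrps9, Mrps22, Mrpl3, Mrpl35, Mrpl47, Mrpl20, Mrps18a and Mrpl45 upward, and Mrpl54, Mrps2, Mrpl38, Mrps7, Mrps21, Mrps28, Mrpl21, Mrps6 and Mrpl51 downward.

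In H19Ter+neo against H19Ter, 26 of the 77 genes were called higher (33.8%, with 12.5% of all genes called higher) and 6 lower (7.79%, with 15.2% of all genes called lower). These genotypes differ by the Pgkneo cassette, by the Hprt-Cre cross that removed it and by depth, which cannot be told apart here. The median log2 difference was 0.11, against 0.01 over all genes. Both subunits contributed, with 17 of 50 large and 9 of 26 small subunit genes called higher. The 3 comparisons share libraries: a low value in H19Ter enters this one and that of H19Ter against WT alike.

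The furthest rise was that of Mrps24, which was also the furthest fall of H19Ter against WT. It had 39.7, 28.7 and 26.0 CPM in H19Ter+neo and 18.6 and 17.5 CPM in H19Ter (log2 difference 0.78 ± 0.15, limma adjusted p = 0.00422). Mrpl36 had 23.6, 20.9 and 21.0 CPM in H19Ter+neo and 13.1 and 12.5 CPM in H19Ter (0.77 ± 0.09, limma adjusted p = 0.000423), a rise of 70.3%. In Mrps24 replicate 5 stood above the other H19Ter+neo libraries, whereas in Mrpl36 the libraries of each genotype lay close together. Mrpl3 had 184, 165 and 165 CPM in H19Ter+neo and 121 and 114 CPM in H19Ter (0.54 ± 0.07, limma adjusted p = 0.000465). Mrps22 had 95.04, 97.2 and 91.8 CPM in H19Ter+neo and 67.4 and 67.6 CPM in H19Ter (0.49 ± 0.06, limma adjusted p = 0.000553). Mrpl20 (0.62), Mrpl42 (0.57), Mrps18c (0.57), Mrps14 (0.57), Mrpl47 (0.55) and Mrpl35 (0.50) followed, with no overlap between libraries. Mrps18c shares 23.2% of its exonic bases with Gm43511 on its own strand. Its call was lost without H19Ter replicate 3 (0.67, limma adjusted p = 0.0552) and without H19Ter replicate 4 (0.47, limma adjusted p = 0.129), and so was that of Mrps14 (0.59 with limma adjusted p = 0.0539, and 0.54 with limma adjusted p = 0.0608). Mrpl47 (0.44, limma adjusted p = 0.0523) lost its call without H19Ter replicate 4.

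The 6 falls were Mrpl27 (-0.57), Mrps7 (-0.48), Mrps26 (-0.46), Mrpl54 (-0.44), Mrpl21 (-0.35) and Mrps6 (-0.33). Mrps7 had 25.7, 28.3 and 24.4 CPM in H19Ter+neo and 36.7 and 36.2 CPM in H19Ter (-0.48 ± 0.08, limma adjusted p = 0.00249), and it was the 1 fall of the 6 called under every library left out. Mrpl27, the homologue of bacterial L27, rested on few read pairs, with 3.30, 4.13 and 2.91 CPM in H19Ter+neo and 5.84 and 4.39 CPM in H19Ter (-0.57 ± 0.19, limma adjusted p = 0.0489), and it has a pseudogene copy 98.9% identical over 447 bases. Without H19Ter replicate 3 its difference was -0.36 (limma adjusted p = 0.332), and its call was also lost with every other library left out except H19Ter+neo replicate 6. Leaving out H19Ter replicate 3 gave 13 genes higher and 1 lower (994 and 1332 of all genes, against 2587 and 3130 with all libraries), and leaving out H19Ter replicate 4 gave 9 higher and 2 lower (1263 and 1731 of all genes). Without both libraries with the most Leydig and interstitial marker signal, 12 were higher and 1 lower (1034 and 1516 of all genes). The 8 rises called under every library left out were Mrps24, Mrpl36, Mrpl20, Mrps22, Mrpl3, Mrpl35, Mrps9 and Mrpl42. Scaling to the same total per library gave 19 higher and 9 lower (1848 and 3930 of all genes), with the median of the 77 genes at 0.04 and that of all genes at -0.06.

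**Figure D4:**
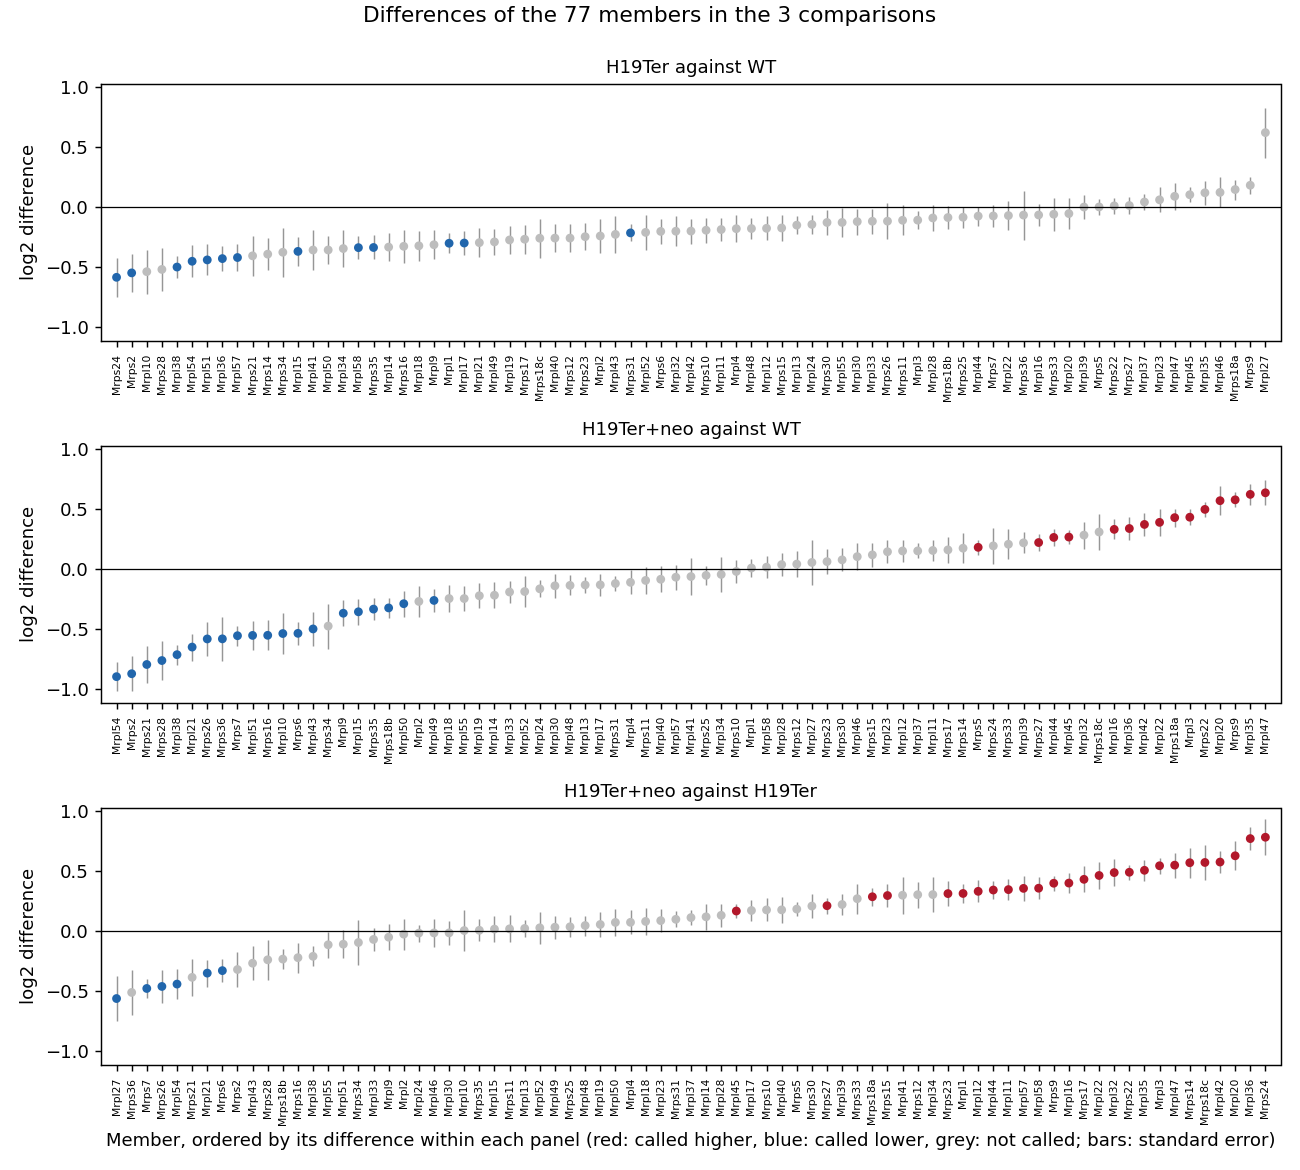
Log2 difference (y axis) with its standard error (bars) of each of the 77 genes in the 3 comparisons, ordered within each panel, with called genes in red (higher) or blue (lower). The calls number 0 higher and 13 lower, 15 and 20, and 26 and 6 from the top panel down.

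The paralogues of bacterial S18 differed among themselves. Mrps18a, whose protein sits in the large subunit, had 50.8, 52.1 and 47.4 CPM in H19Ter+neo, 42.6 and 39.7 CPM in H19Ter, and 38.5 and 36.1 CPM in WT. It was higher in H19Ter+neo than in WT (0.43 ± 0.08, limma adjusted p = 0.000978) and than in H19Ter (0.28 ± 0.08, limma adjusted p = 0.0201). The call against H19Ter was lost without H19Ter replicate 4 (0.23, limma adjusted p = 0.15), without H19Ter replicate 3 (0.33, limma adjusted p = 0.0658) and without H19Ter+neo replicate 6 (0.25, limma adjusted p = 0.0553). Mrps18b, for a small subunit protein, had 39.2, 41.5 and 38.4 CPM in H19Ter+neo, 51.1 and 42.9 CPM in H19Ter, and 49.0 and 50.7 CPM in WT. It was lower in H19Ter+neo than in WT (-0.33 ± 0.09, limma adjusted p = 0.00862, and -0.30 with a limma adjusted p of 0.0703 without WT replicate 2). So 1 paralogue was at its highest and another at its lowest in H19Ter+neo. Mrps30, for a large subunit protein specific to mitochondria, had 55.7, 47.6 and 45.1 CPM in H19Ter+neo, 44.5 and 41.0 CPM in H19Ter, and 44.8 and 49.0 CPM in WT, and was not called in any comparison.

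What the genes share beyond their names was also examined. Exonic length (607 to 8631 bases) and GC content (39.8 to 60.8%) varied widely, and over the 77 genes the log2 difference between H19Ter+neo and WT had a Spearman rho of 0.18 with length and -0.24 with GC content, against 0.03 and -0.14 over 20610 genes. Between H19Ter+neo and H19Ter the rho with GC content was -0.25 over the 77 genes and -0.29 over all genes. Genes longer than the median (38) had 16 called higher and 1 lower in H19Ter+neo against H19Ter, and the 39 others 10 higher and 5 lower, where 12.5% of all genes were called higher and 15.2% lower. Removing the trends with length and GC content, fitted over all genes in each library, left 25 higher and 4 lower in that comparison (2144 and 2754 of all genes). The rho with length there was 0.15 over the 77 genes and -0.04 over all genes. A trend fitted over all genes cannot remove a relation found only among the 77, so the part of length and GC content in their calls was not tested. Of the 18 genes with a pseudogene copy (at least 95% identity over 200 bases), 3 were called higher and 7 lower in H19Ter+neo against WT, and of the 59 without one, 12 higher and 13 lower (27.7% and 26.7% of all genes).

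Many of these genes start head to head with a neighbour. In 23 of them a protein-coding gene on the other strand began within 1000 bases, by the outermost GENCODE ends of both genes. In H19Ter+neo against WT, both partners were called lower in 4 pairs and both higher in 1, the calls were opposite in 3, the member alone was called in 4, the neighbour alone in 5, and neither in 6. Of all genes, 27.7% were called higher and 26.7% lower in this comparison, and whether partners changed together was not tested. Both fell in Mrps7 (-0.56) and Gga3 (-0.50), in Mrps18b (-0.33) and the phosphatase subunit gene Ppp1r10 (-0.70), in Mrpl21 (-0.65) and Ighmbp2 (-0.59), and in Mrpl51 (-0.56) and the condensin gene Ncapd2 (-0.21). Both rose in Mrps27 (0.22) and Ptcd2 (0.50), 2 genes for mitochondrial RNA-binding proteins. The opposite calls were those of Mrpl10 (-0.54, limma adjusted p = 0.0194) beside Lrrc46 (3.32, limma adjusted p = 6.1e-05), Mrpl49 (-0.26) beside Fau (0.53), which encodes a protein of the cytoplasmic ribosome, and Mrpl50 (-0.29) beside the zinc finger gene Zfp189 (0.50). Mrpl36 and Ndufs6, a subunit gene of respiratory complex I, overlap by 29 bases at their outermost GENCODE ends. RefSeq places the 250 bases before the Mrpl36 start at chr13:73330759-73331008, inside the GENCODE gene, so whether they share a promoter is not settled. Ndufs6 had 21.7, 23.0 and 16.4 CPM in H19Ter+neo, 20.9 and 21.0 CPM in H19Ter, and 22.9 and 26.0 CPM in WT. It was not called, with a log2 difference of -0.05 ± 0.13 between H19Ter+neo and H19Ter (limma adjusted p = 0.801), where Mrpl36 rose.

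Other genes of mitochondrial translation came from lists compiled with earlier results of these data known. Their counts stand against 27.7% of all genes called higher and 26.7% lower in H19Ter+neo against WT, and 14.1% higher and 11.0% lower in H19Ter against WT. Of 5 mitoribosomal protein genes named otherwise, 2 were lower in H19Ter+neo than in WT, Gadd45gip1 (-0.60 ± 0.12, limma adjusted p = 0.00193) and Ptcd3 (-0.23 ± 0.06, limma adjusted p = 0.0107), and Chchd1 was higher than in H19Ter (0.46 ± 0.13, limma adjusted p = 0.029). Of 26 genes for ribosome assembly and rRNA modification, 5 were higher (19.2%) and 9 lower (34.6%) in H19Ter+neo than in WT, and 1 higher and 4 lower (15.4%) in H19Ter than in WT. Mettl17, for an assembly factor of the small subunit, was the 1 called higher in H19Ter. It had 15.8, 17.9 and 18.1 CPM in H19Ter+neo, 14.8 and 15.8 CPM in H19Ter, and 10.9 and 11.4 CPM in WT, a difference against WT of 0.63 ± 0.10 for H19Ter+neo (limma adjusted p = 0.000457) and 0.46 ± 0.11 for H19Ter (limma adjusted p = 0.014). Of 15 translation factor genes, 3 were higher (20%) and 6 lower (40%) in H19Ter+neo than in WT. Tufm, for the elongation factor that brings tRNAs to the ribosome, had 98.0, 100 and 105 CPM in H19Ter+neo, 81.4 and 84.6 CPM in H19Ter, and 54.8 and 67.8 CPM in WT, called higher in H19Ter+neo (0.73 ± 0.09, limma adjusted p = 9.75e-05) and in H19Ter (0.45 ± 0.10, limma adjusted p = 0.00948). Its partner Tsfm, which recharges that factor, was lower in H19Ter+neo (-0.53 ± 0.13, limma adjusted p = 0.00549) and in H19Ter (-0.64 ± 0.14, limma adjusted p = 0.0102). Oxa1l, for the insertase that places new chains in the membrane, was higher in H19Ter+neo than in WT (0.40 ± 0.07, limma adjusted p = 0.000613).

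No listed gene for mitochondrial tRNA charging or for mitochondrial DNA was called higher in either mutant than in WT. Of 20 aminoacyl-tRNA synthetase and amidotransferase genes, 8 were lower (40%, against 26.7% of all genes) and 0 higher (27.7% of all genes) in H19Ter+neo. In H19Ter, 6 were lower (30%, against 11.0%) and 0 higher (14.1%). Those lower in H19Ter+neo included Gatb (-0.47 ± 0.07, limma adjusted p = 0.000488) and Ears2 (-0.50 ± 0.07, limma adjusted p = 0.000209). Gatb was also called lower in H19Ter (-0.45 ± 0.08, limma adjusted p = 0.00478), and Ears2 was not (-0.02 ± 0.08, limma adjusted p = 0.902). Of 11 genes for transcription and replication of mitochondrial DNA, 6 were lower (54.5%) and 0 higher in H19Ter+neo and 4 lower (36.4%) and 0 higher in H19Ter, including the helicase gene Twnk (-0.41 ± 0.07 in H19Ter+neo, limma adjusted p = 0.00106), the polymerase gene Polg (-0.37 ± 0.07, limma adjusted p = 0.00107) and Tfam (-0.38 ± 0.08, limma adjusted p = 0.00231), whose protein packs mitochondrial DNA. Of 9 regulators of nuclear genes for mitochondria, 4 were lower (44.4%) and 1 higher (11.1%) in H19Ter+neo than in WT. In H19Ter, 0 were lower and 1 higher (11.1%), the coactivator gene Ppargc1b (0.85 ± 0.23, limma adjusted p = 0.0241). Ppargc1b had 1.23, 1.08 and 1.18 CPM in H19Ter+neo, 2.14 and 2.68 CPM in H19Ter, and 1.43 and 1.21 CPM in WT. It was lower in H19Ter+neo than in H19Ter (-1.03 ± 0.21, limma adjusted p = 0.00576). The coactivator gene Pprc1 had 200, 213 and 198 CPM in H19Ter+neo, 293 and 296 CPM in H19Ter, and 292 and 284 CPM in WT, a fall of -0.50 ± 0.06 on the log2 scale against WT (limma adjusted p = 6.99e-05). Nrf1, for the factor that binds the NRF1 site, was lower in H19Ter+neo than in WT (-0.41 ± 0.08, limma adjusted p = 0.00117), as were the nuclear receptor gene Esrra (-0.65, limma adjusted p = 0.00225) and Myc (-0.78, limma adjusted p = 0.0291), and Gabpb1, for the partner of GABPA, higher (0.26 ± 0.07, limma adjusted p = 0.0115). The mRNAs and rRNAs of mitochondrial DNA were not analysed here.

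The cytoplasmic ribosomal protein genes (83) and the subunit genes of NADH dehydrogenase encoded in the nucleus (40) stand beside the 77 genes as the most similar sets. In H19Ter against WT their median log2 differences were -0.19 and -0.23, against -0.20 for the 77 genes, with 3 higher and 6 lower of the first (3.61% and 7.23%) and 0 higher and 4 lower of the second (10%), where 14.1% of all genes were called higher and 11.0% lower. For H19Ter+neo against WT the medians were 0.06 and -0.12, against -0.07, with 24 higher and 15 lower (28.9% and 18.1%) and with 6 higher and 11 lower (15.0% and 27.5%), where all genes gave 27.7% and 26.7%. Between H19Ter+neo and H19Ter they were 0.26 and 0.19, against 0.11, with 32 higher and 4 lower (38.6% and 4.82%) and with 11 higher and 3 lower (27.5% and 7.50%), where all genes gave 12.5% and 15.2%. The medians of all 3 sets were thus above 0 between the mutants, and no difference between the sets was tested.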

How the data were processed

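Total RNA-seq values of 7 libraries were used, 3 H19Ter+neo, 2 H19Ter and 2 WT. Directional paired reads were trimmed (Trim Galore 0.6.0) by the authors, and alignment to mm10 and counting per gene used STAR 2.7.8. Processing notes of the submitters list edgeR and deepTools as well, without the annotation release. The deposited values are log2 CPM with a mean prior count of 2, and undoing the log gave whole read pairs for 100% of values (tolerance 1e-06). Totals were 37.5 to 87.3 M read pairs. The filter of 0.1 CPM in 2 libraries removed no gene. limma 3.58.1 (R 4.3.3) was run on the deposited log2 values of all 20643 genes with genotype as the only factor and a mean-variance trend, and p-values were adjusted by Benjamini-Hochberg over all genes. The design had foreseen linear CPM. Positions of genes in the text, exons and pseudogenes came from GENCODE vM21 (GRCm38) and BLAST 2.17.0, figures from Python 3.11.15 with matplotlib 3.10.9.

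Genes named are Mrpl23, the Mrps18 paralogues, Mrps30 and Mrps36, the 5 highest and 5 lowest per kb of exon, and in each comparison the 10 largest rises and falls among called genes whose libraries did not overlap, with up to 4 genes of each further list by smallest p. Genes named outside this rule were chosen after their values were seen. The members and lists were chosen with earlier results of these data known. Alternatives were prior counts of 0.5 and 5, a mean log2 value of at least 0 and no filter, 2 other scalings, no variance trend, limma-voom on the read pairs, fits of 2 groups, thinning to 37.5 M read pairs, removal of GC and length trends, and each library left out, a lone library then being assumed to vary like the others.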

Additional observations from a re-analysis of the deposited data

Results flagged for a closer look

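Mrpl36 was singled out because it was called in opposite directions in the mutants. It was higher in H19Ter+neo than in WT by 0.33 ± 0.09 on the log2 scale (23.6, 20.9 and 21.0 CPM against 16.7 and 17.97 CPM, limma adjusted p = 0.012) and lower in H19Ter than in WT (13.1 and 12.5 CPM in H19Ter, -0.43 ± 0.10, limma adjusted p = 0.0144). The test of the difference between the mutants gave 0.768 (± 0.09, limma adjusted p = 0.000423). As Mrpl36 was picked for its opposite differences against the same WT libraries, a difference between the mutants follows from that choice and is no separate evidence. That difference was called under every library left out, while the fall in H19Ter was -0.47, -0.40 and -0.38 without H19Ter replicate 3, H19Ter replicate 4 or WT replicate 2 and was then not called (adjusted p of 0.0553, 0.0905 and 0.116 by limma). The rise in H19Ter+neo was 0.28 without WT replicate 1 (limma adjusted p = 0.0908).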

How the results depend on the processing

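No paired analysis was possible because the replicate numbers 1 to 7 are not shared between genotypes. The 13 calls in H19Ter against WT were 6 with the same total per library, 2 without the variance trend, 2 with limma-voom, and 29 with 2 groups only; leaving out a library gave 0 to 24. In H19Ter+neo against WT the 35 calls were 20 to 39 with a library left out, and the median of -0.066 was -0.135 to 0.024. In H19Ter+neo against H19Ter the 32 calls were 12 without the variance trend, 13 without both libraries highest in Leydig markers, and 11 to 34 with a library left out. The cause was not tested. All other alternatives kept the counts within 1.5 times. Signs of uncalled genes turned for Mrps36 in H19Ter against WT (0.008 with the same total per library, -0.248 to 0.107 with a library left out, the highest without WT replicate 2), Mrps18b in H19Ter against WT (-0.217 to 0.036 with a library left out, the highest without H19Ter replicate 4) and Mrps30 in H19Ter+neo against WT (-0.04 with GC and length trends removed, -0.015 to 0.139 with a library left out, the lowest without H19Ter+neo replicate 5, and -0.015 without both libraries highest in Leydig markers). Groups of 2 and 3 libraries limit all calls, and the fewest read pairs behind a value were 140.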
